A study of Mus musculus with 4 samples.

Results

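The 42 genes described here encode glycoproteins, proteoglycans, laminins and crosslinking enzymes of the extracellular matrix. They were chosen as a list by name, and all 42 had a value among the 13677 genes measured by RNA sequencing of mouse inguinal white adipose tissue, which lies under the skin of the groin. Of these, 33 belong to the interstitial matrix and 9 to the basement membrane. The series compared 2 libraries labelled FLCNKO, an adipose knockout of Flcn, with 2 wildtype (WT) libraries. Flcn encodes folliculin, a tumour suppressor that acts with the mTOR pathway, and the series asks how it relates to the browning of fat. The sources used here give neither the promoter that drives the deletion nor the strain, age and sex of the mice, nor whether a library holds RNA of 1 animal or a pool. P-values therefore measure only spread between these libraries, which may be technical. In limma each SE and p-value joins a gene's own spread with a spread borrowed from all genes (2 residual and 3.09 prior degrees of freedom). Below, FLCNKO stands for the libraries so labelled.

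The interstitial matrix fills the space between cells and is made mainly by fibroblast-like stromal cells. Fibronectin, fibrillin microfibrils and small proteoglycans organise its collagen fibres, and lysyl oxidases crosslink them. A basement membrane is a thin sheet of laminin and type IV collagen, tied together by nidogens and perlecan, and in fat it surrounds every adipocyte and every blood vessel.

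The values are log2 expression values on a common distribution, with library medians between 10.7636 and 10.7645. The depth behind them is unknown, and levels are not compared between genes because gene length is not known to be accounted for. In the median gene the FLCNKO libraries differed by 0.247 (log2) and the WT libraries by 0.147, while pairs across the groups differed by 0.268 to 0.307. Flcn itself had values of 12.35 and 12.12 in FLCNKO libraries and 12.36 and 12.21 in WT libraries, and its groups overlapped (fold change on the log2 scale of -0.05 with an SE of 0.13; limma adjusted p = 0.852). Which exons were deleted is not stated, and stromal and immune cells contribute RNA to whole fat, so this value neither bears out the labels nor goes against them. White adipocyte markers were present in every library, with Adipoq at 17.72 and 17.85 in FLCNKO libraries and at 18.31 and 18.17 in WT libraries. Skeletal muscle markers set FLCNKO replicate 2 apart, with median values of 12.01 in FLCNKO replicate 1 and 5.21 in FLCNKO replicate 2, against 12.89 and 9.85 in WT replicates 1 and 2.

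Most of the matrix genes were lower in FLCNKO than in WT fat, and 5 of 42 passed the test over all genes. Lox, the lysyl oxidase gene, fell 2.67-fold, Fn1, the fibronectin gene, 2.56-fold, Efemp1, which encodes fibulin-3, 2.33-fold, Ogn, which encodes the small proteoglycan osteoglycin, 2.15-fold, and Lama2, a laminin alpha chain gene, 1.75-fold (limma, adjusted p between 0.0369 and 0.0478). No member rose, and 1 was higher at an unadjusted p under 0.05. A share of 11.9% of the members fell, and over all genes the share was 0.614% in this direction and 0.98% in the other. At an unadjusted p under 0.05, 24 members were lower, or 57.1% of them, beside 10.3% of all genes lower and 12.1% higher. In 29 members both FLCNKO libraries lay below both WT libraries and in 3 both lay above, while over all genes 25.4% lay apart in the first way and 29.2% in the second. The median log2 fold change of the members was -0.68, against 0.0046 over all genes, and 36 members were below 0. The members were chosen with earlier results of these data known, so no test was made over the list. In bulk tissue, fewer cells of a type and less RNA per cell cannot be told apart.

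The calls depended on how the variance was fitted. Without the trend of variance on mean expression limma called 0 of the 42 members and 0 of all genes. At an unadjusted p under 0.05, 19 members were then lower, and 2702 of all 13677 genes were below that p in either direction, against 3061 with the trend. Calls were also lost without any 1 of the 4 libraries. Such a fit leaves 1 library in a group and lost the calls over all genes, so this loss is not particular to the members. The log2 fold changes of the 5 members that fell kept their sign without any 1 library, the one nearest to 0 being -0.74 for Lama2 without FLCNKO replicate 1.

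**Figure D1:**
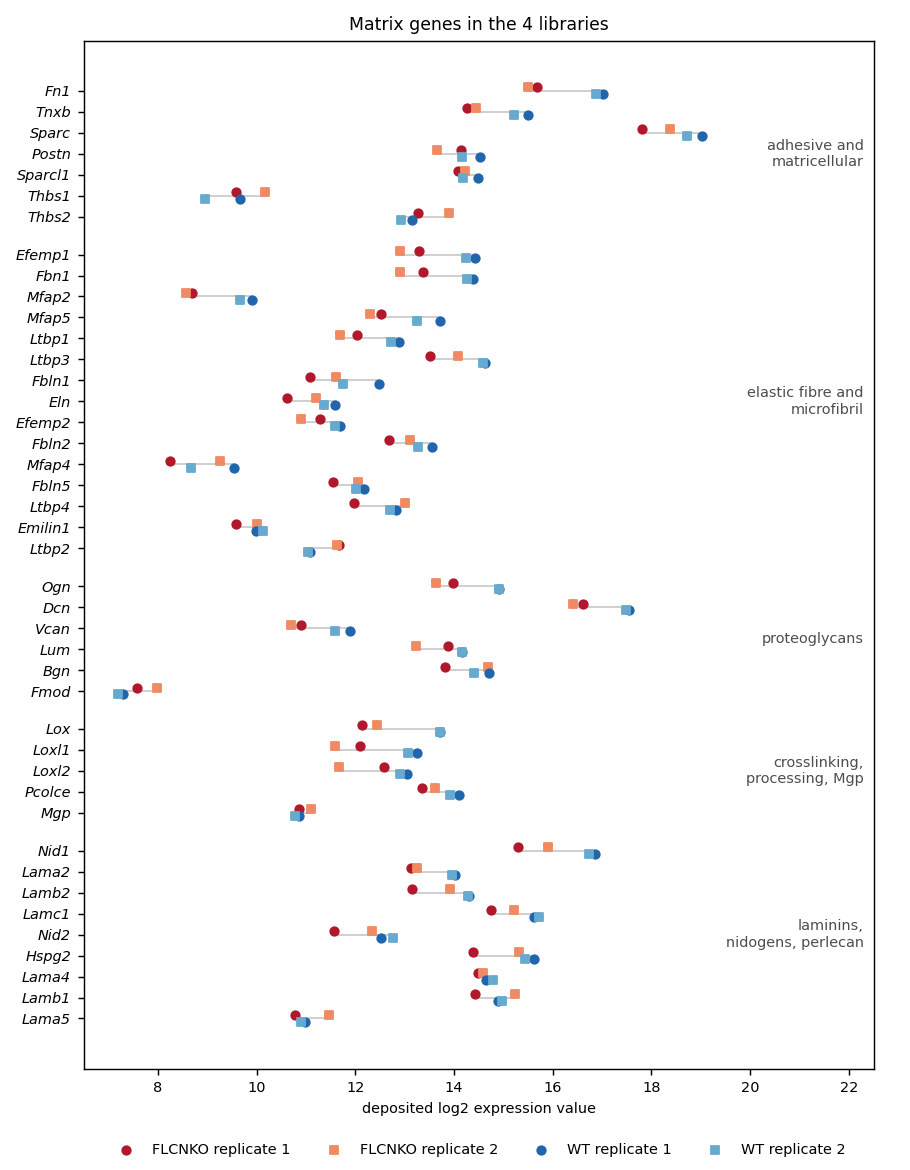
Deposited log2 expression values (horizontal axis) of the 42 matrix genes (rows, grouped by role), with FLCNKO libraries as red and orange points and WT libraries as dark and light blue points just under them. For Lox, Fn1, Efemp1, Ogn and Lama2 both FLCNKO points lie left of both WT points by more than either group's own spread.

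Promoter sequence is shown for 3 of the members that fell, Ogn, Efemp1 and Lama2, and for Ltbp2, the member with the highest log2 fold change. Ltbp2 did not pass (limma adjusted p = 0.0684), so it is shown only to be read beside the others. Each is the 250 bases before the start of the gene in RefSeq's GRCm38.p6, 5′ to 3′ on the gene's strand, while the expression files were made with mm9. Capitals mark matches on either strand to 6 motifs. They are TATAAA for the TATA box, the CCAAT box, the GC box read as GGGCGG, the AP-1 site read as TGANTCA, the TEAD site read as GGAATG, and the E-box of MiT/TFE factors read as CACGTG. Fn1 and Lox had no entry in the promoter table, which held 36 promoters of 27 members.
Ogn, chr13:49607765-49608014, plus strand: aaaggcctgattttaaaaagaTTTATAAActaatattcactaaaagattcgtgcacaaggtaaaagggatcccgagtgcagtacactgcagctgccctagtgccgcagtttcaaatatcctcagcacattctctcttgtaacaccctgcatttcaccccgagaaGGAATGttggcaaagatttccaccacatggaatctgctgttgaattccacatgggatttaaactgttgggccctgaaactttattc
Efemp1, chr11:28852955-28853204, plus strand: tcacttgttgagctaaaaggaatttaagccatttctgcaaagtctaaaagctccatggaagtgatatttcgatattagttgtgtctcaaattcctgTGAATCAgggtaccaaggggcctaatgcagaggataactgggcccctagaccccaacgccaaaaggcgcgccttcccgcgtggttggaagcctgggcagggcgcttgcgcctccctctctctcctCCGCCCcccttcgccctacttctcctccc
Lama2, chr10:27616943-27617192, minus strand: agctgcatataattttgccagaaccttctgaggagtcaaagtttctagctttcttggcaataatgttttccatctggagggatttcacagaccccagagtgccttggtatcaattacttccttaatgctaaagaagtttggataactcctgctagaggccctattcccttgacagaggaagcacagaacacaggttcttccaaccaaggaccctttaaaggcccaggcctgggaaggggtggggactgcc
Ltbp2, chr12:84876492-84876741, minus strand: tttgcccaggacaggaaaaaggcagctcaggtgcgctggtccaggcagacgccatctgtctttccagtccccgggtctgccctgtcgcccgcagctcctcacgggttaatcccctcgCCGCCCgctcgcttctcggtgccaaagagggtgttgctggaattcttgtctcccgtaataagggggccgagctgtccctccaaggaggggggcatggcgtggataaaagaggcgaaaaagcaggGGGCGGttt

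The Ogn window held the TATA box letters on both strands at the same place, and a TEAD match. The Efemp1 window held an AP-1 and a GC box match, the Ltbp2 window 2 GC box matches, and the Lama2 window no match and 0 CG dinucleotides. No base of these windows lay in matches to more than 1 of the motifs. Among all 32851 promoters of this length in the table, 32.7% held the GC box letters, 33.8% the CCAAT box, 12.4% the TATA box, 12.6% the TEAD letters, 6.75% the AP-1 letters and 6.02% the E-box. Of the 36 member promoters, 55.6% held a GC box match, and their median share of G and C was 59.0%, against 52.4% over all promoters. The E-box was found in both promoters of Fbln1, whose windows overlap and hold the same match, and in no other member promoter. Some windows of Efemp2 and of Ltbp4 overlap as well, so the 36 promoters are not all separate sequence. A match is a description of the letters only.

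Among the adhesive and matricellular glycoproteins, Fn1 fell and the thrombospondin genes Thbs1 and Thbs2 had the highest values relative to WT. Fibronectin forms fibrils on which other matrix proteins assemble and is bound by integrins. Fn1 had values of 15.68 and 15.49 in FLCNKO libraries, against 17.02 and 16.87 in WT libraries. The gap between the groups was 1.19, and the libraries of a group differed by at most 0.19. The log2 difference of Fn1 was -1.36 ± 0.14 (SE; limma, 2 libraries in each group, adjusted p = 0.0383), and 2.5% of its exon bases overlap the antisense gene Apol7d. Tnxb, the gene of tenascin-X, which spaces collagen fibrils, had values of 14.26 and 14.45 in FLCNKO and 15.49 and 15.22 in WT libraries. Its groups also lay apart, and its log2 fold change of -1.01 ± 0.15 just missed the threshold (adjusted p = 0.0514). Tnxb is uncertain because 9.69% of its 31-base stretches also occur in transcripts of its partial copy Tnxa.

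Sparc, the gene of a collagen-binding matricellular protein, had values of 17.80 and 18.39 in FLCNKO libraries and 19.02 and 18.71 in WT libraries. The groups lay apart, but the 2 FLCNKO libraries differed by 0.59, and the log2 fold change of -0.77 ± 0.26 did not pass (adjusted p = 0.177). Postn, the gene of periostin, which supports collagen assembly, was at 14.14 and 13.65 in FLCNKO and 14.52 and 14.17 in WT libraries (log2 fold change -0.45 ± 0.22, adjusted p = 0.295). Sparcl1, a relative of Sparc, overlapped between the groups, with 14.08 and 14.23 in FLCNKO and 14.48 and 14.19 in WT libraries and a 95% interval of its log2 fold change from -0.54 to 0.19. Thbs1 and Thbs2, whose thrombospondins hold back vessel growth and of which that of Thbs1 also activates latent TGF-beta, did not pass either. Thbs2 was at 13.28 and 13.91 in FLCNKO libraries and 13.16 and 12.92 in WT libraries, a log2 fold change of 0.55 with an interval from -0.04 to 1.15. Thbs1 was at 9.57 and 10.16 in FLCNKO libraries and 9.67 and 8.96 in WT libraries, so that its groups overlapped. The median log2 fold change of the 7 genes of this role was -0.45.

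The elastic fibre and microfibril genes were the largest group, with 15 members. Elastic fibres consist of an elastin core laid down on fibrillin microfibrils, helped by fibulins, and the latent TGF-beta binding proteins attach to the same microfibrils. Of the 15, 1 fell, 14 were below 0, 10 lay apart with FLCNKO lower, and the median log2 fold change was -0.56. These counts are 6.67%, 93.3% and 66.7% of the role, beside 0.614%, 49.6% and 25.4% of all genes. Efemp1 had values of 13.30 and 12.91 in FLCNKO libraries, against 14.42 and 14.23 in WT libraries, a log2 fold change of -1.22 with an SE of 0.17 (adjusted p = 0.0478). Fbn1, which encodes the microfibril protein fibrillin-1, had 13.37 and 12.91 in FLCNKO and 14.38 and 14.25 in WT libraries. Its groups lay 0.89 apart, and its log2 fold change of -1.18 ± 0.18 did not pass (adjusted p = 0.0543). Without knowledge of the strand setting Fbn1 is uncertain, since 20.1% of its exon bases overlap Gm9913 on the other strand.

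Mfap2 and Mfap5 were like Fbn1 in having both FLCNKO libraries below both WT libraries, without a call. Mfap2, which encodes a microfibril-associated glycoprotein, was at 8.70 and 8.57 in FLCNKO and 9.90 and 9.67 in WT libraries (log2 fold change -1.15, adjusted p = 0.0556). Its relative Mfap5 was at 12.51 and 12.30 in FLCNKO and 13.71 and 13.26 in WT libraries (log2 fold change -1.08, adjusted p = 0.0622). Mfap4, an elastin-binding protein gene, had groups that overlapped, with 8.25 and 9.26 in FLCNKO and 9.54 and 8.68 in WT libraries. The log2 fold change of Mfap4 was -0.35 and turned to 0.15 without FLCNKO replicate 1 and to 0.07 without WT replicate 1.

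The 4 genes of latent TGF-beta binding proteins had fold changes of both signs. Ltbp1 was at 12.03 and 11.69 in FLCNKO and 12.88 and 12.73 in WT libraries, a log2 fold change of -0.94 with an SE of 0.15 (adjusted p = 0.0591). Ltbp3 was at 13.51 and 14.08 in FLCNKO and 14.62 and 14.58 in WT libraries, a log2 fold change of -0.80 ± 0.20 (adjusted p = 0.109). Ltbp2, whose protein unlike its relatives does not bind latent TGF-beta, was at 11.67 and 11.64 in FLCNKO and 11.08 and 11.05 in WT libraries. It had the highest log2 fold change of the members, 0.59 ± 0.11, with a 95% interval from 0.31 to 0.87, and did not pass (adjusted p = 0.0684). It overlaps the antisense gene D030025P21Rik over 9.34% of its exon bases. Ltbp4 was at 11.97 and 13.01 in FLCNKO and 12.82 and 12.71 in WT libraries, so that the FLCNKO libraries lay on either side of WT, and its log2 fold change of -0.28 turned to 0.24 without FLCNKO replicate 1. None of these 4 genes was called, and differences between their fold changes were not tested.

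Elastin and the fibulins other than Efemp1 had log2 fold changes between -0.77 and -0.29, and none of them passed. Eln, the elastin gene, was at 10.63 and 11.20 in FLCNKO and 11.58 and 11.36 in WT libraries (log2 fold change -0.56 ± 0.22, SE; adjusted p = 0.23). Efemp2, whose protein fibulin-4 brings lysyl oxidase to elastin, was at 11.28 and 10.90 in FLCNKO and 11.69 and 11.58 in WT libraries (log2 fold change -0.55 ± 0.17, adjusted p = 0.146). Fbln1 and Fbln2, whose proteins occur in elastic fibres and also in basement membranes, had log2 fold changes of -0.77 and -0.53, with groups that lay apart. Fbln5, which helps elastin assemble, and Emilin1, an elastic fibre glycoprotein, had groups that overlapped and 95% intervals from -0.80 to 0.22 and from -0.77 to 0.23.

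Of the 6 proteoglycan genes, Ogn fell, and Dcn and Vcan were lower in both FLCNKO libraries without passing. Small leucine-rich proteoglycans bind collagen fibrils and set their diameter. Ogn had values of 13.98 and 13.64 in FLCNKO libraries, against 14.91 and 14.92 in WT libraries, a log2 fold change of -1.11 with an SE of 0.15 (adjusted p = 0.0476). Dcn, the decorin gene, had 16.62 and 16.41 in FLCNKO and 17.55 and 17.48 in WT libraries. The groups of Dcn lay 0.86 apart, and the 95% interval of its log2 fold change, from -1.37 to -0.63, came with an adjusted p of 0.0517. Vcan, the gene of the hyaluronan-binding proteoglycan versican, was at 10.91 and 10.69 in FLCNKO and 11.89 and 11.59 in WT libraries (log2 fold change -0.94 ± 0.16, adjusted p = 0.0622).

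The other 3 proteoglycan genes differed less. Lum, the lumican gene, was at 13.87 and 13.22 in FLCNKO libraries and 14.17 and 14.15 in WT libraries, a log2 fold change of -0.61 (adjusted p = 0.203). Bgn, the biglycan gene and nearest relative of Dcn, was at 13.83 and 14.68 in FLCNKO and 14.71 and 14.39 in WT libraries. The groups of Bgn overlapped, and its log2 fold change of -0.30 turned to 0.13 without FLCNKO replicate 1. Fmod, the fibromodulin gene, was higher in both FLCNKO libraries, at 7.57 and 7.98, than in both WT libraries, at 7.30 and 7.20, and did not pass (log2 fold change 0.53 ± 0.31, adjusted p = 0.383). The median log2 fold change of the 6 proteoglycan genes was -0.78.

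The crosslinking enzyme genes held the largest fall of all members. Lysyl oxidases oxidise lysine side chains of collagen and elastin, which then form the crosslinks that make fibres stiff. Lox had values of 12.13 and 12.45 in FLCNKO libraries, against 13.71 and 13.71 in WT libraries, a log2 fold change of -1.42 with an SE of 0.14 (adjusted p = 0.0369). Loxl1, the relative needed for elastic fibres, had 12.09 and 11.58 in FLCNKO and 13.24 and 13.06 in WT libraries, a log2 fold change of -1.31 ± 0.20 that missed the threshold (adjusted p = 0.0545). Loxl2, a relative that also crosslinks basement membrane collagen, had 12.57 and 11.66 in FLCNKO and 13.05 and 12.90 in WT libraries. Its log2 fold change of -0.85 did not pass (adjusted p = 0.194), and its value is uncertain because 43.3% of its 31-base stretches also occur in Gm21451. Pcolce, which speeds the trimming of procollagen, was at 13.36 and 13.61 in FLCNKO and 14.11 and 13.92 in WT libraries (log2 fold change -0.53, adjusted p = 0.118). Mgp, which encodes an inhibitor of calcification, overlapped between the groups, with 10.86 and 11.10 in FLCNKO and 10.86 and 10.77 in WT libraries.

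**Figure D2:**
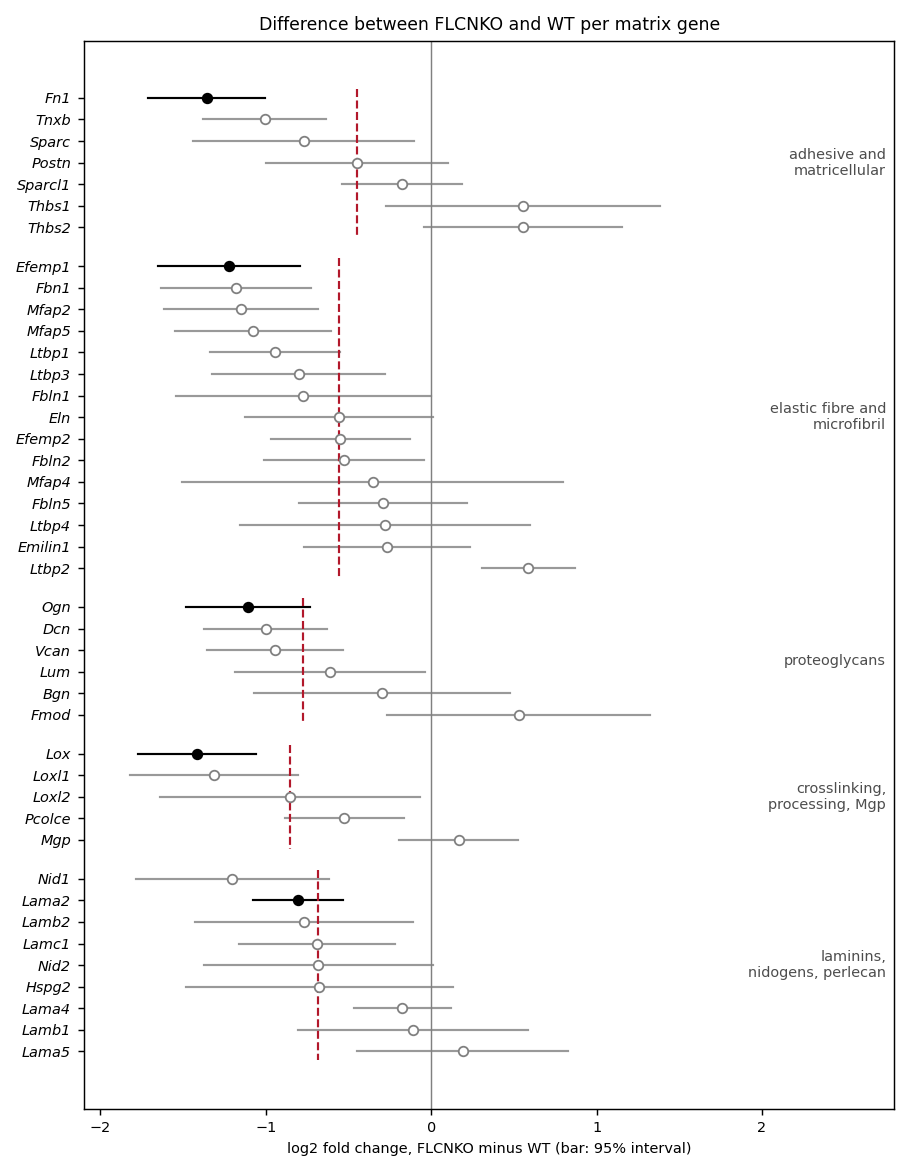
Log2 fold change of FLCNKO minus WT (horizontal axis, point) with its 95% limma interval (bar) for the 42 matrix genes, filled where the adjusted p was under 0.05, with the median of each role as a dashed line. The filled points are Fn1, Efemp1, Ogn, Lox and Lama2, all left of 0, and every role median lies between -0.85 and -0.45.

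Among the 9 basement membrane genes Lama2 fell (11.1%, beside 0.614% of all genes). In 7 of 9 the groups lay apart with FLCNKO lower (77.8%, beside 25.4% of all genes). Laminins are trimers of an alpha, a beta and a gamma chain, and the alpha chain sets which cells bind them. Lama2, the alpha chain of muscle and nerve that stromal cells also make, had values of 13.13 and 13.25 in FLCNKO libraries, against 14.02 and 13.96 in WT libraries. Its groups lay 0.72 apart and the libraries within a group at most 0.12, and it fell by 0.80 ± 0.11 on the log2 scale (SE; limma adjusted p = 0.0476). An antisense gene, Gm48084, overlaps 3.86% of its exon bases. The skeletal muscle markers had median values of 12.01 and 5.21 in FLCNKO libraries and 12.89 and 9.85 in WT libraries. The part of muscle in the Lama2 values was not tested. Lama4, the alpha chain of vessels and adipocytes, was at 14.49 and 14.59 in FLCNKO and 14.64 and 14.78 in WT libraries. Its log2 fold change of -0.17 had a 95% interval from -0.47 to 0.12 (adjusted p = 0.435). Lama5, an alpha chain of vessels and epithelia, was at 10.77 and 11.48 in FLCNKO and 10.98 and 10.89 in WT libraries, and its log2 fold change of 0.19 turned to -0.16 without FLCNKO replicate 2.

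The laminin beta and gamma chains and their partners had FLCNKO libraries that differed from each other. Lamc1, the gamma chain shared by most laminins, was at 14.75 and 15.22 in FLCNKO and 15.63 and 15.73 in WT libraries (log2 fold change -0.69 ± 0.18, SE; adjusted p = 0.117). Lamb2, a beta chain, was at 13.15 and 13.91 in FLCNKO and 14.31 and 14.29 in WT libraries (log2 fold change -0.77, adjusted p = 0.176). The other beta chain gene, Lamb1, overlapped between the groups, with 14.43 and 15.23 in FLCNKO and 14.89 and 14.98 in WT libraries, and its log2 fold change of -0.11 turned to 0.29 without FLCNKO replicate 1.

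Nidogens bridge laminin and type IV collagen, and perlecan is a heparan sulfate proteoglycan of the basement membrane. Nid1 had the largest difference of the 9 genes, with 15.29 and 15.91 in FLCNKO and 16.86 and 16.74 in WT libraries. The groups of Nid1 lay 0.83 apart, but its FLCNKO libraries differed by 0.62, and the log2 fold change of -1.20 ± 0.23 did not pass (adjusted p = 0.0696). Nid2 was at 11.57 and 12.34 in FLCNKO and 12.53 and 12.76 in WT libraries (log2 fold change -0.68, adjusted p = 0.229), and 8.45% of its exon bases overlap Rtraf on the other strand. Hspg2, the perlecan gene, was at 14.38 and 15.31 in FLCNKO and 15.61 and 15.44 in WT libraries, so that FLCNKO replicate 2 lay just below WT (log2 fold change -0.68, adjusted p = 0.285).

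Interstitial and basement membrane members had nearly the same median difference. The median log2 fold change was -0.61 over the 33 interstitial genes, of which 4 fell, and -0.68 over the 9 basement membrane genes, of which 1 fell. These calls were 12.1% and 11.1% of the lists, beside 0.614% of all genes. Moving Fbln1 and Fbln2 to the basement membrane left both medians where they were. The difference between the medians, 0.07, was smaller than its spread between replicates of 0.19 (SD), and its sign depended on the libraries used. It was -0.22 without FLCNKO replicate 1 and -0.14 without WT replicate 2. Genes outside the members were less alike, with medians of -0.62 over 40 other interstitial genes and -0.17 over 11 other basement membrane genes.

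The 2 FLCNKO libraries differed from each other in the basement membrane genes. All 9 basement membrane genes had higher values in FLCNKO replicate 2 than in FLCNKO replicate 1, by a median of 0.70 on the log2 scale, whereas 51.1% of all genes did. The largest of these differences were 0.93 for Hspg2 and 0.80 for Lamb1, and the smallest 0.10 for Lama4. Of the 33 interstitial genes 18 were higher in FLCNKO replicate 2 and 15 lower. Ltbp4, Mfap4 and Bgn were higher by 1.04, 1.01 and 0.86, while Loxl2, Lum and Loxl1 were lower by 0.91, 0.65 and 0.51. Between the WT libraries, 4 of 9 basement membrane genes were higher in replicate 2 and the median difference was -0.01. The WT libraries differed in the interstitial genes, of which 2 of 33 were higher in WT replicate 2 with a median difference of -0.18, while 7349 of all 13677 genes were. The 11 other basement membrane genes, which are no members, were split between 6 higher and 5 lower in FLCNKO replicate 2, with a median difference of 0.23. Relative to the WT mean, the basement membrane median was -0.93 in FLCNKO replicate 1 and -0.30 in FLCNKO replicate 2, and without FLCNKO replicate 1 the median log2 fold change was -0.30. This contrast between replicates was noticed in the data and was not tested.

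**Figure D3:**
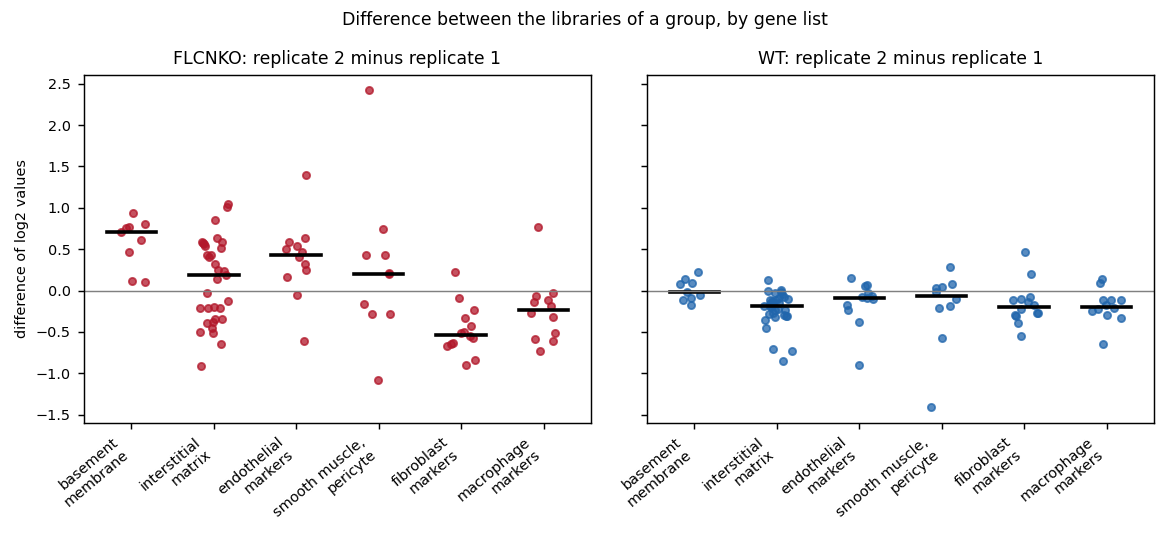
Difference of log2 values between replicate 2 and replicate 1 (vertical axis) for each gene of 6 lists, within FLCNKO in the left panel and within WT in the right panel, with medians as black bars. All 9 basement membrane points lie above 0 in FLCNKO, while fibroblast markers have a median of -0.53 there.

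Markers of other cell types were read beside these values. Fibroblast and progenitor markers that are not matrix genes, such as Pdgfra, Cd34 and Pi16, were called in 0 of 14 cases by limma. At an unadjusted p under 0.05, 12 of them (85.7%) were lower and 0 higher, beside 10.3% and 12.1% of all genes. All 14 markers were below 0, with a median log2 fold change of -1.11. The log2 of their summed level was 16.87 and 16.38 in FLCNKO libraries and 17.83 and 17.52 in WT libraries. It was lowest in FLCNKO replicate 2, where 13 of the 14 markers were lower than in FLCNKO replicate 1. The 12 endothelial markers had a median of 0.06 (0 of 12 called, 1 lower and 0 higher at an unadjusted p under 0.05), and 10 of the 12 were higher in FLCNKO replicate 2 than in FLCNKO replicate 1. The log2 of the endothelial sum was 15.55 and 15.94 in FLCNKO libraries and 15.76 and 15.67 in WT libraries. Smooth muscle and pericyte markers had a log2 sum of 15.96 and 16.24 in FLCNKO and 16.15 and 16.05 in WT libraries. The part of these markers in the matrix values was not tested.

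Other marker lists gave the following values. Of 12 macrophage markers 2 fell, Itgam and C1qc (16.7%, beside 0.614% of all genes). Of the 12, 11 were below 0, with a median log2 fold change of -0.75. The log2 of their summed level was 16.62 and 16.40 in FLCNKO libraries and 17.44 and 17.19 in WT libraries. White adipocyte markers had median values of 17.01 and 17.55 in FLCNKO and 17.34 and 17.27 in WT libraries, with 0 of 15 called. Schwann cell markers had a log2 sum of 15.07 and 14.67 in FLCNKO and 14.95 and 15.22 in WT libraries, with 0 of 9 called. Of these 9 markers 8 were below 0 and 1 above, with a median log2 fold change of -0.34. Skeletal muscle markers, whose tissue is also rich in basement membrane, had a log2 sum of 16.34 and 13.41 in FLCNKO and 17.46 and 14.41 in WT libraries, with 0 of 15 called. In FLCNKO replicate 2 Acta1 alone was at 13.32, while the median of the 15 markers was 5.21. Lymphocyte markers had a log2 sum of 12.87 and 11.86 in FLCNKO and 14.07 and 12.87 in WT libraries, with 0 of 10 called. Of 10 duct epithelial markers only 4 had a value, and Krt5, Krt14 and Epcam were among those without. Of the 4, Trp63 fell (25%, beside 0.614% of all genes). Krt8 and Krt18 overlapped between the groups (log2 fold changes -0.01 and -0.46), and Cdh1 lay apart (-0.86). The log2 sum of the 4 was 9.12 and 9.35 in FLCNKO and 10.48 and 11.33 in WT libraries. Trp63 alone was at 8.13 and 7.88 in FLCNKO and 10.07 and 10.98 in WT libraries. Of 7 mesothelial markers only 2 had a value, and limma called 0 of them. Their log2 sum was 8.90 and 8.50 in FLCNKO and 8.11 and 7.83 in WT libraries. The 2 had opposite signs, with log2 fold changes of 1.45 for Lrrn4 and -1.88 for Krt19. At an unadjusted p under 0.05 the lower and higher markers numbered 8 and 0 for macrophages, 4 and 1 for white adipocytes, 0 and 0 for Schwann cells, 0 and 0 for skeletal muscle, 2 and 0 for lymphocytes, 1 and 0 for duct epithelium and 1 and 1 for mesothelium. Over all genes 10.3% were lower and 12.1% higher at that p. The part of these lists in the matrix values was not tested.

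**Figure D4:**
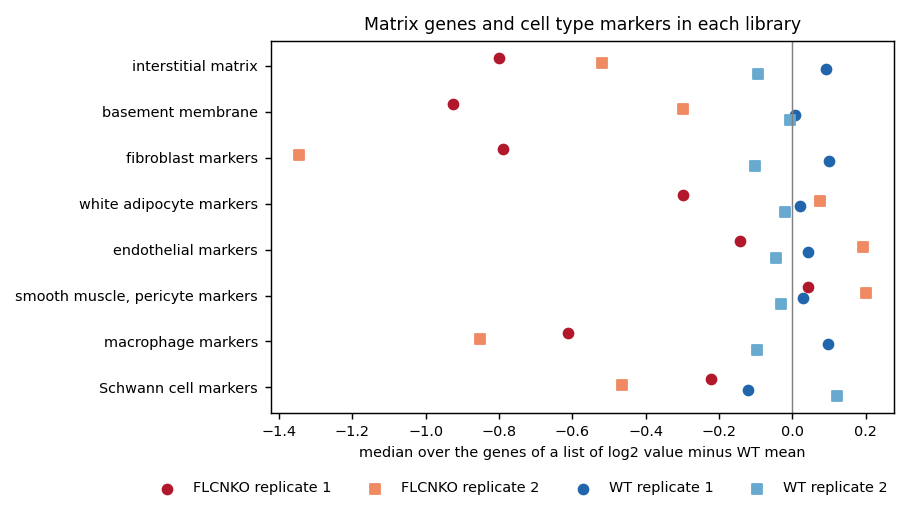
Median over the genes of a list of the log2 value minus the gene's WT mean (horizontal axis), for the matrix compartments and 6 marker lists (rows) in FLCNKO libraries (red and orange) and WT libraries (dark and light blue). Both matrix compartments and fibroblast, macrophage and Schwann cell markers lie left of the WT points in both FLCNKO libraries. FLCNKO replicate 2 is to the right of replicate 1 for the matrix compartments. It is to the left of replicate 1 for fibroblast, macrophage and Schwann cell markers.

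The genes around the members were read from 3 further lists. Among 40 other interstitial matrix genes 4 fell (10%, beside 0.614% of all genes) and 0 rose. At an unadjusted p under 0.05, 20 (50%) were lower and 4 (10%) higher, beside 10.3% and 12.1% of all genes. Their median log2 fold change was -0.62. Spon1, the gene of the matrix protein F-spondin, fell to 10.31 and 10.39 in FLCNKO libraries, against 11.93 and 11.94 in WT libraries (log2 fold change -1.59 ± 0.11, SE; limma adjusted p = 0.0336). Ecm1, the gene of an extracellular matrix glycoprotein, fell to 13.53 and 13.35 in FLCNKO libraries, against 14.77 and 14.71 in WT libraries (log2 fold change -1.30, adjusted p = 0.0336). Thbs3, a thrombospondin gene of the subgroup that forms pentamers, fell by 1.05 on the log2 scale (adjusted p = 0.0431), and 6.59% of its exon bases overlap Mtx1 on the other strand. Abi3bp, a collagen-binding protein gene, fell by 0.79 (adjusted p = 0.0467). As for the members, these 4 calls were lost without the trend. They were also lost without any 1 library, as were the calls over all genes.

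Among 11 other basement membrane genes limma called 0, and the median log2 fold change was -0.17. At an unadjusted p under 0.05, 1 was lower (9.09%, beside 10.3% of all genes) and 0 higher. The smallest p belonged to Ntn4, a netrin gene, at 9.80 and 9.23 in FLCNKO and 10.52 and 10.18 in WT libraries (log2 fold change -0.83 ± 0.25, SE; adjusted p = 0.143). Of 25 matrix receptor genes limma called 0, with 7 (28%) lower and 0 higher at an unadjusted p under 0.05, and their median was -0.21. The first by p were Sdc2, a syndecan gene, at 12.06 and 11.86 in FLCNKO and 12.74 and 12.62 in WT libraries (log2 fold change -0.72 ± 0.12, adjusted p = 0.063), and the integrin gene Itga9 (log2 fold change -0.58 ± 0.13, adjusted p = 0.0872). Itgb1, the integrin beta chain that pairs with most matrix-binding alpha chains, was at 14.90 and 15.09 in FLCNKO and 15.26 and 15.11 in WT libraries (log2 fold change -0.19, adjusted p = 0.443), and Dag1, the dystroglycan gene for a laminin receptor, had a log2 fold change of 0.04 (adjusted p = 0.92). These last 2 genes were chosen after their values were seen.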

How the data were processed

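RNA of inguinal white adipose tissue was extracted with Trizol and columns, per the labels' protocols. The authors deposited 1 table per library with log2 expression values for 13677 Ensembl genes, and per the submitters' processing notes STAR, limma and mm9 were used, with no version listed. The sources used here do not name the counting program, annotation or strand setting. The values share 1 distribution (highest value 21.66 in every library), so a shift common to most genes cannot be seen.

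Groups and replicate numbers came from the titles. Symbols were matched by Ensembl identifier (13592 matched, 85 did not). FLCNKO was compared with WT by limma 3.58.1 in R 4.3.3, with group as only term, variances moderated with a trend (2 residual and 3.09 prior degrees of freedom), two-sided, Benjamini-Hochberg adjustment over all genes, threshold 0.05, no filter on low values. The fit was tested on simulated data. Sharing and overlap were computed on GENCODE M21 (GRCm38), so no coordinates were joined to the mm9 values. Members, lists and alternatives were chosen with earlier results of these data known. Named with full values were members that passed, the 2 smallest p per role, the extremes of each compartment and 11 well-known members; of the related lists, those that passed or otherwise the 2 smallest p. One gene that this rule names in a related list is not reported here.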

Additional observations from a re-analysis of the deposited data

How the results depend on the processing

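Without the trend limma called 0 members lower, interstitial 0 and basement membrane 0, and 0 of all genes (218 as reported; 2702 at an unadjusted p under 0.05). A robust prior gave 9 members (8 interstitial) and 344 genes, keeping genes with mean 8 or higher gave 9 (8 interstitial) and 325 of 11311 genes, and array weights gave 8 (7 interstitial) and 271 genes. With that filter the interstitial minus basement membrane median was -0.0095. The replicate block gave 14 members (12 interstitial, 2 basement membrane) and 842 genes. The replicate numbers are only numbers in the labels, and the differences of replicate 1 and 2 correlated across genes between the groups with r = 0.363. With 2 pairs and no label that ties the numbers to a shared litter or day, the pairing is not part of the reported fit. Subtracting library medians and repeating quantile normalization each left 5 members called, and 0 members were called higher in any fit.

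Leaving out any 1 library lost the calls over all genes, so only fold changes are given for these fits. The median of the members then lay between -0.84 and -0.47, of interstitial genes between -0.80 and -0.49, of basement membrane genes between -0.93 and -0.30, and their difference between -0.22 and 0.24. Signs turned in Bgn (-0.73 to 0.13), Mfap4 (-0.86 to 0.15), Ltbp4 (-0.80 to 0.24), Lamb1 (-0.51 to 0.29), Lama5 (-0.16 to 0.54) and Flcn (-0.17 to 0.063, the highest without FLCNKO replicate 2). With 1 library left in a group, it is assumed to vary like the other group. The cause of these shifts was not tested. Depth is unknown, so counting error cannot be given.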

Other observations

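Matrix genes outside the 42 members also held large differences that did not pass, chosen here after their values were seen. Hapln4 and Hapln3, link protein genes whose relatives stabilise the binding of proteoglycans to hyaluronan, were higher in FLCNKO libraries. Hapln4 was at 7.57 and 7.51 in FLCNKO and at 4.14 and 2.37 in WT libraries (log2 fold change 4.29 ± 0.91, SE; limma adjusted p = 0.0825), with WT values near the low end of the scale. Hapln3 was at 7.93 and 8.61 in FLCNKO and 6.69 and 6.43 in WT libraries (log2 fold change 1.71 ± 0.37, adjusted p = 0.0871).

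Adamtsl2, whose protein binds fibrillin microfibrils and latent TGF-beta binding protein, was at 6.76 and 7.65 in FLCNKO and 10.04 and 9.43 in WT libraries (log2 fold change -2.53 ± 0.39, adjusted p = 0.0549). Ccdc80, a matrix protein gene of adipose tissue, was at 15.57 and 16.55 in FLCNKO and 17.48 and 17.69 in WT libraries (log2 fold change -1.52 ± 0.34, adjusted p = 0.0886). Prelp, the gene of a leucine-rich repeat matrix protein, overlapped between the groups, at 15.40 and 16.93 in FLCNKO and 16.75 and 16.41 in WT libraries.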
